A study of Mus musculus with 20 samples.

Results

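Aminoacyl-tRNA synthetases attach each amino acid to its transfer RNA and so supply the substrates of protein synthesis. The 36 genes described here were chosen by name: 20 encode the cytosolic enzymes and 16, whose symbols end in 2, encode mitochondrial ones. All 36 were among the 17573 genes tested, of 26830 genes with at least a single count. In fetal livers from nutrient-restricted pregnancies 0 of the 36 passed the threshold (adjusted p under 0.05), which 0.666% of all genes tested passed. The mRNA values of 18 of the 20 cytosolic genes lay below those of the control livers, with a median log2 fold change of -0.14, and those of 10 of the 16 mitochondrial genes did, with a median of -0.08. The cytosolic cysteinyl-tRNA synthetase gene Cars had the largest difference, at -0.50.

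The MNR group held 10 male fetuses of dams under maternal nutrient restriction (MNR), and the control group held 10 male fetuses of control dams. All fetuses were of the outbred CD-1 strain, at embryonic day 18.5, shortly before birth, and polyadenylated RNA of the right liver lobe was sequenced. Each group had 5 litters, named A to E, with 2 littermates each, and litters that share a letter across groups came from different dams. The sources used here do not give how strongly or for how long food was restricted. Because the dam received the diet, littermates' counts were added together and 5 MNR litters were set against 5 control litters.

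Cytosolic and mitochondrial protein synthesis use separate enzymes for most amino acids. In the cytosol Eprs joins the glutamate and proline enzymes in a single protein, Farsa and Farsb are the subunits of the phenylalanine enzyme, and several synthetases sit in a large complex held together by the scaffold proteins Aimp1, Aimp2 and Eef1e1. Gars and Kars serve both compartments, and mitochondrial glutaminyl-tRNA is made by way of Ears2 and an amidotransferase. Uncharged tRNA activates the kinase Eif2ak4 (GCN2), which raises translation of the transcription factor ATF4, and ATF4 induces many cytosolic synthetase genes in cultured mammalian cells.

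The deposited transcript counts totalled 16703824 to 28016953 per MNR fetus and 14925778 to 27848100 per control fetus. Over all genes, 117 (0.666%) passed the threshold (edgeR quasi-likelihood test, p adjusted by Benjamini-Hochberg), 73 (0.415%) higher and 44 (0.25%) lower in MNR. Hepatocyte markers summed to 176649 to 201765 CPM (counts scaled by library size to the same total) in MNR litters and 186358 to 205478 CPM in control litters, which fits the labelled tissue. Blood-forming cells were also present, as fetal liver makes blood cells: 9 of 10 erythroid markers lay lower (median log2 fold change -0.10), with sums of 23963 to 30167 CPM in MNR litters and 21706 to 36073 CPM in control litters. All 8 neutrophil markers lay higher (median 0.26), all 5 megakaryocyte markers higher (0.25), all 7 macrophage markers higher (0.21), all 6 B cell markers lower (-0.50) and all 5 stellate cell markers lower (-0.29), none past the threshold. The part of these cell types in the synthetase values was not tested beyond a fit with the erythroid level as a covariate, in which the cytosolic median was -0.11 and 17 of 20 values were negative. In bulk tissue fewer cells of a type and less RNA per cell cannot be told apart. Control fetus B_1 had an exocrine pancreas marker sum of 677 CPM, MNR fetus B_1 had 278 CPM and MNR fetus E_1 had 194 CPM, against a median of 36.9 CPM over the 20 fetuses.

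Among the cytosolic genes, 6 of 20 had an unadjusted p under 0.05 and lay lower in MNR, against 9.69% of all genes tested, and 0 lay higher, against 9.95%. In either direction 19.6% of all genes had such a p. A negative log2 fold change was found for 18 of the 20, against 50.6% of all genes, whose median was near 0. The 6 genes were Cars, Aars, Mars, Wars, Nars and Sars, the enzymes for cysteine, alanine, methionine, tryptophan, asparagine and serine. Every MNR litter lay below every control litter for 1 cytosolic gene, Wars, against 2.23% of all genes, and every MNR litter above for 0, against 2.28%.

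**Figure D1:**
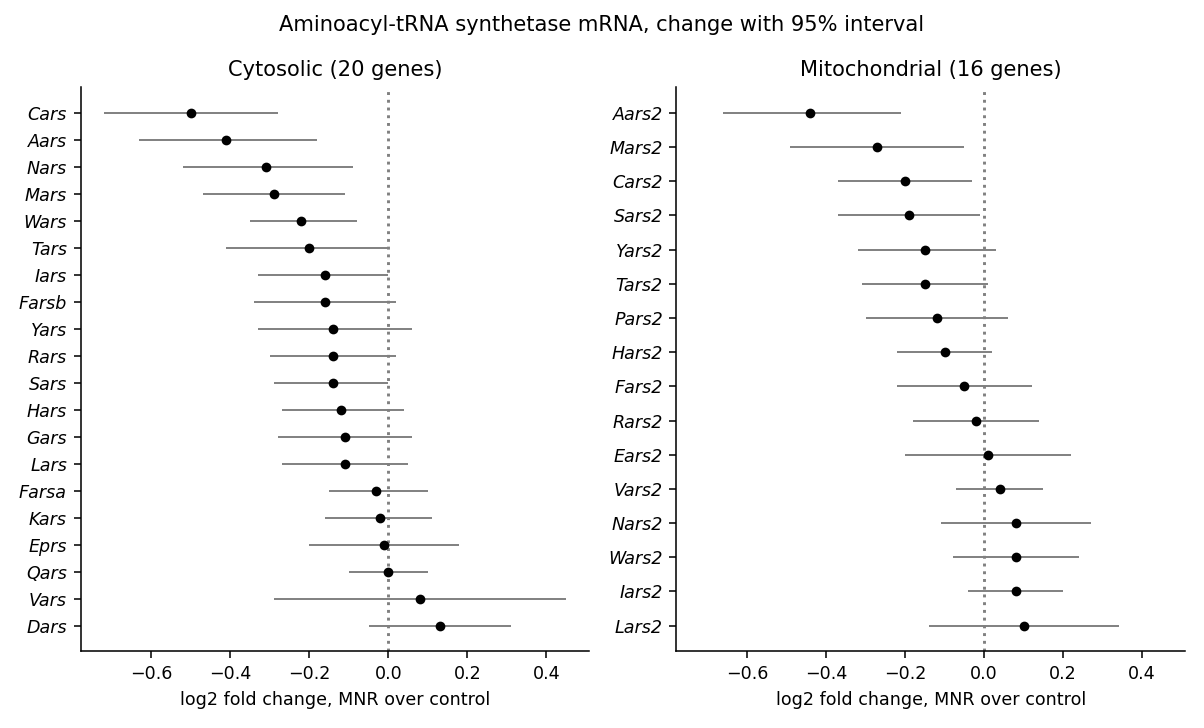
Log2 fold change (MNR over control, x axis) of the 20 cytosolic genes, left, and the 16 mitochondrial genes, right; points are edgeR estimates from 5 litters per group and bars their 95% intervals, not adjusted for the number of genes. Of the cytosolic values 18 lie left of 0, with Cars at -0.50, and of the mitochondrial values 10 do, with Aars2 at -0.44.

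Cars (ENSMUSG00000010755, minus strand of chromosome 7 at 150743135 to 150785995 in build NCBIM37, which is mm9) charges tRNA with cysteine. It had 22.9, 22.4, 21.6, 26.7 and 23.6 CPM in MNR litters A to E, against 35.3, 25.1, 34.7, 38.1 and 32.7 CPM in control litters A to E. Control litter B, with 25.1 CPM, fell inside the MNR range, and the other 4 control litters lay above every MNR litter. The means were 23.5 ± 1.95 CPM in MNR and 33.2 ± 4.94 CPM in control litters (SD, n = 5 each), a log2 fold change of -0.50 (SE 0.10, 95% interval -0.72 to -0.28) with an adjusted p of 0.0515. This missed the threshold narrowly. In 14 of 26 other settings Cars was called lower. Among the 14 were leaving out control litter B (843 of 17748 genes called) or MNR litter D (512 of 17697). A looser threshold of 0.1 and fetuses as separate libraries, which treats littermates as independent, were also among them. In the other 12 Cars was not called. Of these, fetus 1 of each litter alone called 0 genes of the series. So did leaving out control litter A, C or E or MNR litter B or E. Over all 26 settings the log2 fold change of Cars ran between -0.60 and -0.41. Exons of Cars overlap those of the pseudogene Gm15580 on the opposite strand by 211 bases. Of its 32-base stretches, 18 of 3870 (0.465%) also occur in exons of other genes, among them Ftl2. The effect of either on the Cars counts was not tested.

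Aars (ENSMUSG00000031960, plus strand of chromosome 8 at 113557044 to 113581564 in the same build) is the alanine enzyme. It had 76.4, 75.0, 79.5, 91.1 and 90.3 CPM in MNR litters A to E, against 106, 87.7, 126, 124 and 103 CPM in control litters A to E. The groups met only at control litter B, which lay below MNR litters D and E. Its log2 fold change was -0.41 (SE 0.10, 95% interval -0.63 to -0.18), with an adjusted p of 0.0729.

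Mars, which charges both the initiator and the elongator methionine tRNA, had 53.0, 47.3, 47.0, 49.0 and 53.0 CPM in MNR litters A to E, against 58.5, 49.8, 61.2, 70.2 and 65.0 CPM in control litters A to E. Again control litter B was the single control litter within the MNR range. The log2 fold change was -0.29 (SE 0.08) with an adjusted p of 0.0993. Exons of Mars overlap those of Ddit3 on the opposite strand by 68 bases, and the sources used here do not say whether counting used the strand. Ddit3 itself had 7.82 ± 1.54 CPM in MNR and 8.14 ± 1.5 CPM in control litters.

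Wars (ENSMUSG00000021266, minus strand of chromosome 12 at 110098240 to 110132384, NCBIM37) is the tryptophan enzyme. It had 20.9, 17.7, 19.0, 19.7 and 21.2 CPM in MNR litters A to E, against 22.3, 21.4, 23.1, 23.2 and 24.4 CPM in control litters A to E. The highest MNR litter (21.2) lay just under the lowest control litter (21.4). Its log2 fold change was -0.22 (SE 0.06) with an adjusted p of 0.0993.

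Nars, the asparagine enzyme, had 95.8, 101, 90.3, 105 and 115 CPM in MNR litters A to E, against 114, 109, 119, 156 and 128 CPM in control litters A to E. MNR litter E lay above control litters A and B, and control litter D stood well above the rest. The log2 fold change was -0.31 (SE 0.10) with an adjusted p of 0.129. For Sars, the serine enzyme, the means were 51.5 ± 3.09 CPM in MNR and 56.9 ± 4.64 CPM in control litters, a log2 fold change of -0.14 with an adjusted p of 0.253.

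**Figure D2:**
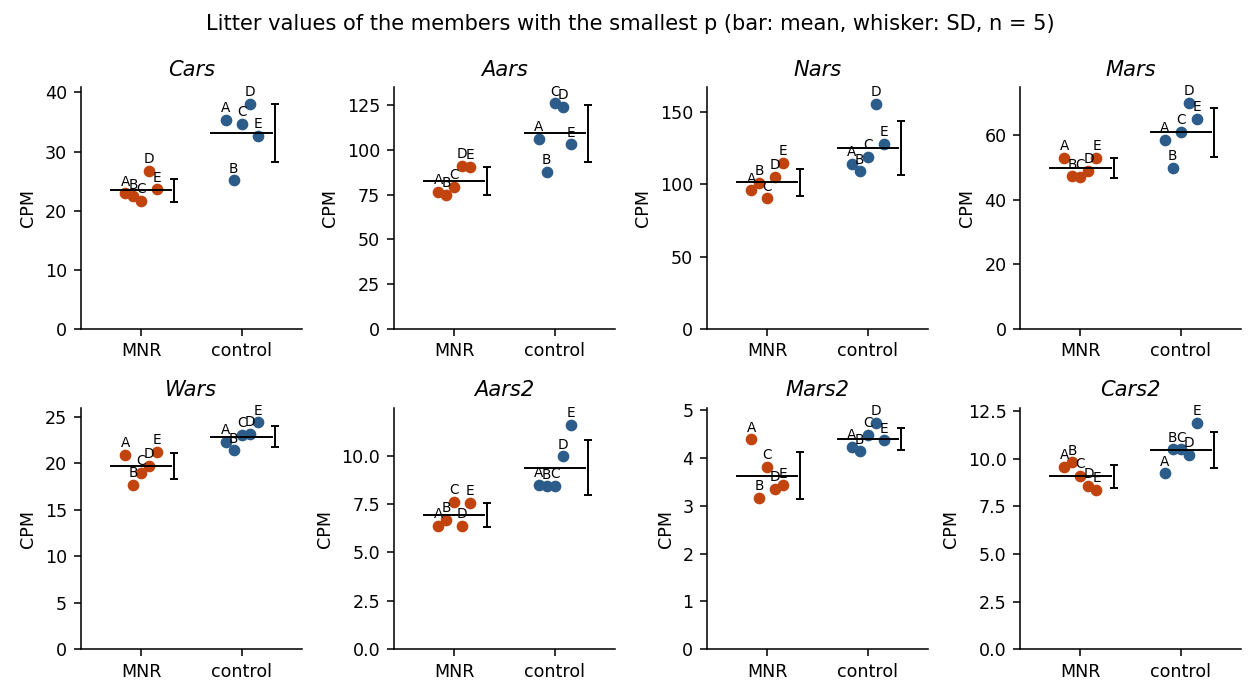
CPM by litter (y axis, from 0) for the 5 cytosolic and 3 mitochondrial genes of smallest p; each point is a litter with its letter, MNR left and control right, the bar is the mean and the whisker the SD of 5 litters. Control litter B is the lowest control point for Cars, Aars, Nars, Mars and Wars.

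Of the remaining 14 cytosolic genes, 12 had negative values and none an unadjusted p under 0.05. Tars, the threonine enzyme, had 62.5, 59.8, 61.1, 65.8 and 80.9 CPM in MNR litters A to E, against 79.7, 62.5, 78.8, 78.0 and 81.0 CPM in control litters A to E. Here MNR litter E stood with the controls and control litter B with the MNR litters, and the log2 fold change was -0.20 (SE 0.09, adjusted p 0.262). Iars, for isoleucine, averaged 79.0 ± 4.1 CPM in MNR and 88.4 ± 9.64 CPM in control litters, with a log2 fold change of -0.16 (adjusted p 0.263). The log2 fold change was -0.16 for Farsb, -0.14 for Rars (arginine) and Yars (tyrosine), -0.12 for Hars (histidine), and -0.11 for Lars (leucine) and Gars (glycine).

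A group of 4 cytosolic genes had values close to 0. Qars, the glutamine enzyme, averaged 63.2 ± 1.58 CPM in MNR and 63.3 ± 2.45 CPM in control litters, with a 95% interval of -0.10 to 0.10 for the log2 fold change. Eprs averaged 180 ± 21.8 CPM in MNR and 181 ± 14.2 CPM in control litters (log2 fold change -0.01, interval -0.20 to 0.18). The value was -0.02 for Kars, the lysine enzyme, and -0.03 for Farsa. The subunits of the phenylalanine enzyme thus had values of -0.03 (Farsa) and -0.16 (Farsb), and their difference was not tested.

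Both cytosolic genes with positive values lay within the spread of the litters. Dars, the aspartate enzyme, had 129, 137, 111, 125 and 121 CPM in MNR litters A to E, against 98.2, 132, 118, 112 and 109 CPM in control litters A to E, and the groups overlapped. Its log2 fold change was 0.13 (SE 0.08, adjusted p 0.434). Vars, the valine enzyme, had the largest coefficient of variation of the cytosolic genes within MNR, 21.4%: its litters ran between 44.5 and 78.6 CPM in MNR and between 48.0 and 81.8 CPM in controls, with a log2 fold change of 0.08 (SE 0.17). Exons of Vars overlap those of D17H6S56E-5 on the opposite strand by 304 bases.

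The 8 enzymes of the multisynthetase complex (Dars, Eprs, Iars, Kars, Lars, Mars, Qars and Rars) had a median log2 fold change of -0.07, with 7 negative values and 1 unadjusted p under 0.05, that of Mars. The other 12 cytosolic genes had a median of -0.15, with 11 negative values and 5 such p. Whether these subsets differ was not tested. Of all genes tested, 50.6% had negative values and 9.69% lay lower at such a p.

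ATF4 and related factors bind a composite element that joins a C/EBP and an ATF binding site, and the letters TGATGNAA were searched on both strands as a short form of it. RefSeq promoters of build GRCm38.p6, from 250 bases before to 50 bases after the gene start, were found for 13 of the 20 cytosolic and 14 of the 16 mitochondrial genes. The motif was in 5 of the 13 cytosolic promoters (38.5%) and in 0 of the 14 mitochondrial ones, against 1304 of all 32851 promoters (3.97%), or 1219 of 27025 genes (4.51%). A window of 30 bases around the match nearest the gene start is shown for each of the 5. The windows run 5′ to 3′ on the strand that reads TGATGNAA, with the motif in capitals. They lie at chr8:111033840-111033869 (Aars, minus strand), chr6:55037960-55037989 (Gars, minus), chr13:49682126-49682155 (Iars, minus), chr15:11399655-11399684 (Tars, plus) and chr4:129189895-129189924 (Yars, plus).
Aars: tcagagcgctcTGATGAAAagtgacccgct
Gars: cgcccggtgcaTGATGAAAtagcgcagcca
Iars: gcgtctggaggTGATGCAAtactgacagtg
Tars: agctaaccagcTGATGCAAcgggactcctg
Yars: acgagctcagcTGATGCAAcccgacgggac
All 5 windows hold TGATGNAA because they were chosen by it, and its free position was C or A.

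The 5 cytosolic genes with the motif had log2 fold changes of -0.41 (Aars), -0.20 (Tars), -0.16 (Iars), -0.14 (Yars) and -0.11 (Gars), a median of -0.16, with 1 unadjusted p under 0.05. The 8 cytosolic genes whose promoter lacked these letters had a median of -0.02 and a range of -0.29 to 0.13, with 7 negative values and 2 unadjusted p under 0.05, those of Mars and Sars. Cars (-0.50), Nars (-0.31) and Wars (-0.22) are in neither subset, and nor are Rars, Hars, Lars and Vars. These medians were not compared by a test, and a match of letters is not a shown binding site. Of all genes tested, 50.6% had negative values and 9.69% lay lower at an unadjusted p under 0.05.

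Among the mitochondrial genes, 4 of 16 lay lower in MNR with an unadjusted p under 0.05 (Aars2, Mars2, Cars2 and Sars2), against 9.69% of all genes, and 0 lay higher, against 9.95%. Aars2, the mitochondrial alanine enzyme (ENSMUSG00000023938, plus strand of chromosome 17 at 45643790 to 45657791, NCBIM37), was the 1 member of this set whose litters did not overlap, with MNR below as for 2.23% of all genes. It had 6.38, 6.68, 7.61, 6.35 and 7.57 CPM in MNR litters A to E, against 8.47, 8.41, 8.42, 9.95 and 11.6 CPM in control litters A to E. Every MNR litter lay below every control litter, and the log2 fold change was -0.44 (SE 0.10, 95% interval -0.66 to -0.21) with an adjusted p of 0.0676.

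Mars2, the mitochondrial methionine enzyme, had 4.39, 3.16, 3.82, 3.35 and 3.43 CPM in MNR litters A to E, against 4.24, 4.14, 4.49, 4.73 and 4.37 CPM in control litters A to E. MNR litter A stood among the controls and the other 4 MNR litters below them all. The log2 fold change was -0.27 (SE 0.10, adjusted p 0.165). It was also the member with the fewest counts, 1669 over all fetuses.

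Cars2, for cysteine, had 9.56, 9.82, 9.09, 8.6 and 8.38 CPM in MNR litters A to E, against 9.24, 10.5, 10.5, 10.2 and 11.9 CPM in control litters A to E. Control litter A lay among the MNR litters, and the log2 fold change was -0.20 (SE 0.08, adjusted p 0.18). Sars2, for serine, averaged 7.16 ± 0.441 CPM in MNR and 8.15 ± 0.79 CPM in control litters, with a log2 fold change of -0.19 (adjusted p 0.226).

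Of the other 12 mitochondrial genes, 6 had negative and 6 positive values. The log2 fold change was -0.15 for Tars2 (threonine) and Yars2 (tyrosine), -0.12 for Pars2 (proline), -0.10 for Hars2 (histidine), -0.05 for Fars2 (phenylalanine) and -0.02 for Rars2 (arginine). It was 0.01 for Ears2 (glutamate), 0.04 for Vars2 (valine), and 0.08 for each of Nars2 (asparagine), Wars2 (tryptophan) and Iars2 (isoleucine). The narrowest interval among these belonged to Vars2, at -0.07 to 0.15. Iars2 shares 2018 bases of exon with Rab3gap2 on the opposite strand, so its value is uncertain.

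Lars2, the mitochondrial leucine enzyme, had the largest positive value of its set, 0.10 (SE 0.11). It had 184, 199, 207, 163 and 187 CPM in MNR litters A to E, against 165, 136, 176, 181 and 217 CPM in control litters A to E, so the groups overlapped widely. Littermates also differed most for this gene, with a median ratio of 1.32 between the higher and the lower littermate, against 1.08 for the median mitochondrial member. Of its 32-base stretches, 39 of 3230 (1.21%) also occur in AA474408 or Gm15564, which had at most 10 CPM (AA474408) and 4.01 CPM (Gm15564) in any fetus. Larger shares of such stretches also occur in other genes for Yars (3.07%), Qars (2.83%), Kars (2.34%), Farsa (1.98%), Cars2 (1.62%) and Wars2 (1.39%). These are shares of sequence, not of reads, and their effect on the counts was not tested.

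Set side by side by amino acid, 15 pairs of a cytosolic and a mitochondrial gene could be formed, with Fars2 paired with both Farsa and Farsb. Both were below 0 in 10 pairs, both above 0 in 1 (valine), and the cytosolic gene alone was below 0 in 4 (isoleucine, leucine, asparagine and tryptophan). The partners were close for alanine (-0.41 for Aars, -0.44 for Aars2) and methionine (-0.29 for Mars, -0.27 for Mars2). They were further apart for asparagine (-0.31 for Nars, 0.08 for Nars2), tryptophan (-0.22 for Wars, 0.08 for Wars2) and cysteine (-0.50 for Cars, -0.20 for Cars2). The points share their litters and are given as a description only.

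**Figure D3:**
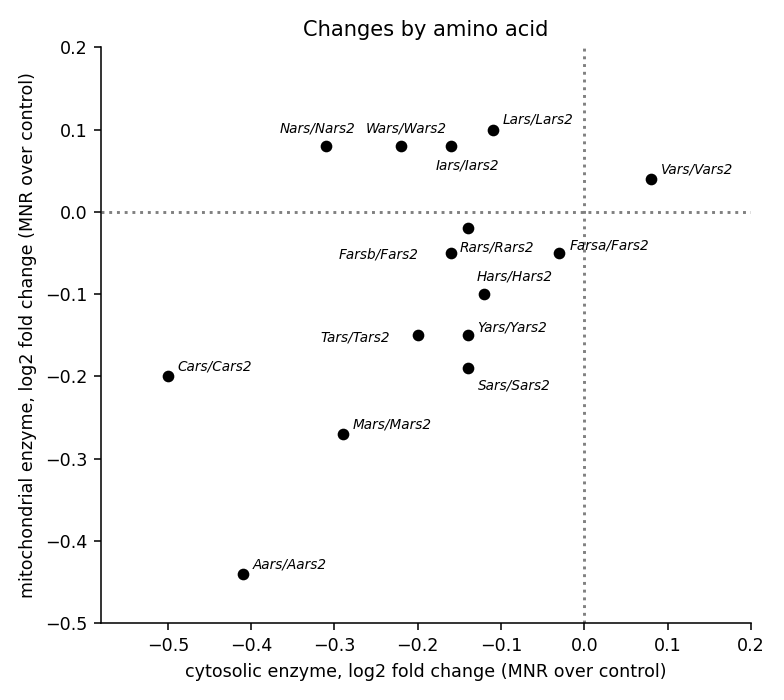
Log2 fold change (MNR over control) of the cytosolic gene (x axis) against that of the mitochondrial gene for the same amino acid (y axis); each of the 15 points is a pair, with Fars2 shown against both subunits of the cytosolic enzyme. The pair for alanine lies lowest, at -0.41 and -0.44, and 10 pairs lie below 0 on both axes.

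Levels were compared between genes per transcript length, as TPM, which scales length-corrected counts to the same total in every litter. The cytosolic genes had a median level of 43.2 TPM in MNR and 46.8 TPM in control litters, and the mitochondrial genes 13.1 TPM in MNR and 13.0 TPM in control litters. The median of all tested genes was 8.79 TPM in MNR and 8.7 TPM in control litters. Summed over the 20 genes, cytosolic levels were 898 ± 47.4 TPM (849 to 955) in MNR and 969 ± 79.5 TPM (866 to 1086) in control litters, ranges that overlap. The mitochondrial sum was 238 ± 16.7 TPM in MNR and 239 ± 19 TPM in control litters, and without Lars2 it was 166 ± 9.19 TPM in MNR and 171 ± 9.56 TPM in control litters.

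Dars was highest, at 92.8 ± 6.64 TPM in MNR and 84.3 ± 9.55 TPM in control litters, followed in the controls by Nars, Qars, Lars2, Yars and Eprs, each of whose control litters overlapped those of the next. Lars2, at 72.6 ± 9.07 TPM in MNR and 68.0 ± 10.5 TPM in control litters, was the highest mitochondrial gene, and Iars2 followed at 25.1 ± 2.27 TPM in MNR and 23.4 ± 0.584 TPM in control litters. At the low end stood Aars2, Pars2, Wars2 and Mars2, the last with 1.9 ± 0.329 TPM in MNR and 2.28 ± 0.146 TPM in control litters. Wars, at 15.1 ± 1.81 TPM in MNR and 17.3 ± 0.932 TPM in control litters, was the lowest cytosolic gene and lay among the mitochondrial ones. Neighbours in the control order had litters that did not overlap at 5 places: between Iars2 and Hars2, Fars2 and Cars2, Cars2 and Ears2, Sars2 and Aars2, and Wars2 and Mars2. Dars was first and the same 4 genes were last when the length of all exons was used, but Qars moved to rank 18 instead of 3, so the order in between depends on the length chosen.

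**Figure D4:**
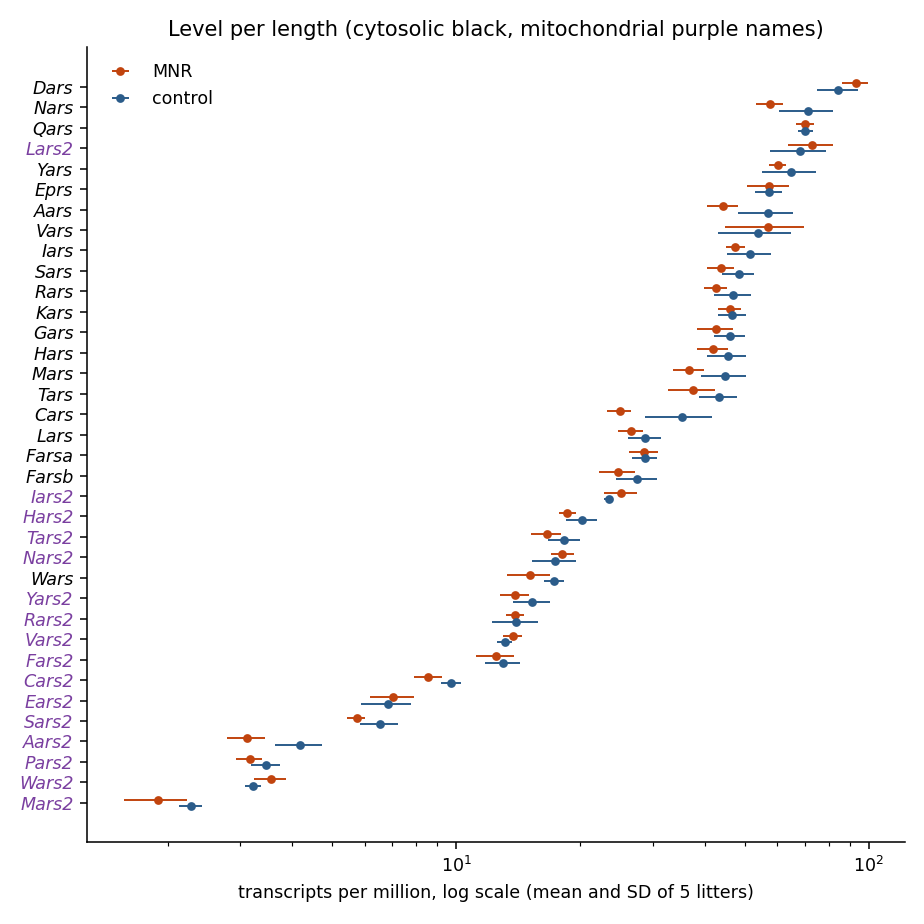
Level per length in TPM (log x axis) of the 36 genes in order of their control mean; points are means and bars SDs of 5 litters, with MNR above control in each row, black names cytosolic and purple names mitochondrial. Dars is highest at 92.8 TPM in MNR and 84.3 TPM in controls and Mars2 lowest at 1.9 TPM in MNR and 2.28 TPM in controls.

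The litters differed among themselves. Mean log2 CPM over the 20 cytosolic genes was 5.88, 5.82, 5.80, 5.85 and 5.96 in MNR litters A to E, against 5.95, 5.83, 5.99, 6.15 and 6.07 in control litters A to E. Control litters A and B thus lay within the MNR range, and B was the lowest control litter for 16 of the 20 genes, while control litter D was the highest for 14. For the 16 mitochondrial genes the means were 3.88, 3.85, 3.85, 3.77 and 3.87 in MNR litters A to E, against 3.95, 3.79, 3.91, 3.96 and 4.02 in control litters A to E, and control litter B was the lowest control litter for 11. Within control litter B the fetus with high pancreas markers and its littermate differed by a median ratio of 1.06 over the cytosolic genes and 1.09 over the mitochondrial genes, with 23.3 and 25.9 CPM of Cars and 82.5 and 89.9 CPM of Aars. The largest ratio was 1.48, for Vars (65.9 and 44.4 CPM), and among mitochondrial genes 1.28, for Nars2 (13.2 and 16.9 CPM). The other control fetuses had 28.5 to 41.4 CPM of Cars and 95.2 to 130 CPM of Aars. Without the fetus with 677 CPM of pancreas markers Cars was called, in a fit that called 296 of 17551 genes. The cytosolic median stayed at -0.14.

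Littermates of MNR litter D differed from each other by the largest ratio of any litter for 10 of the 20 cytosolic genes, and the median ratio between littermates was 1.07 for the median cytosolic gene. The cytosolic median was most sensitive to the control litters at the extremes. Without control litter B it was -0.18, with 13 of 20 genes lower and 1, Dars, higher at an unadjusted p under 0.05, and 3 called, in a fit that called 843 of 17748 genes, and without control litter D it was -0.08, with 5 at such a p, 0 called and 15 values negative. The coefficient of variation between litters had a median over the cytosolic genes of 7.21% in MNR and 10.2% in controls, and over the mitochondrial genes of 7.12% in MNR and 9.08% in controls. It was lower in MNR for 15 of 20 cytosolic genes (75%) and 10 of 16 mitochondrial genes (62.5%), against 52.9% of all genes tested.

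**Figure D5:**
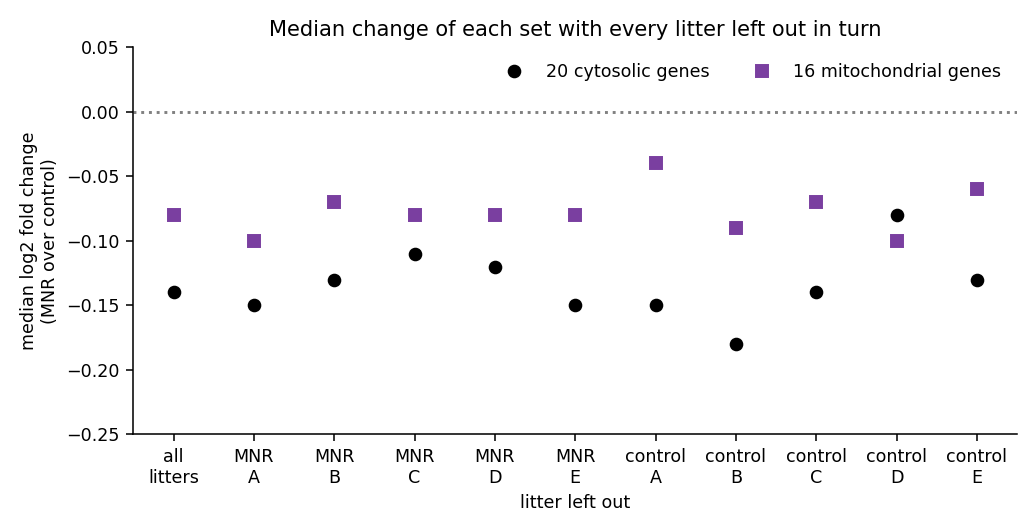
Median log2 fold change (MNR over control, y axis) of the 20 cytosolic genes (circles) and the 16 mitochondrial genes (squares) with all litters and with each of the 10 litters left out in turn (x axis). The cytosolic median runs between -0.18 without control litter B and -0.08 without control litter D, and the mitochondrial one between -0.10 and -0.04.

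Many synthetase genes start close to another gene on the opposite strand. Starts within 1000 bases were counted, whether the genes diverge or overlap there. Such a start was found for 5 of the 20 cytosolic genes (25%) and 5 of the 16 mitochondrial genes (31.2%). The share was 2111 of 14797 tested protein-coding genes (14.3%). Hars and Hars2, for histidine, are such a pair, 197 bases apart, with log2 fold changes of -0.12 for Hars and -0.10 for Hars2. Their exons overlap by 195 bases, so their counts are not fully separate. Sars2 starts 171 bases from Mrps12, a mitochondrial ribosomal protein gene, and the values were -0.19 for Sars2 and -0.18 for Mrps12 (SE 0.14). Wars starts 98 bases from Wdr25, and here the values were -0.22 for Wars and 0.13 for Wdr25 (SE 0.10). Yars had -0.14 and its neighbour S100pbp 0.05, and Kars had -0.02 and its neighbour Terf2ip 0.05. For Vars and D17H6S56E-5 the values were 0.08 and 0.34, and for Ears2 and Ubfd1 0.01 and -0.13. Exons overlap by 304 bases for Vars and D17H6S56E-5 and by 89 bases for Ears2 and Ubfd1. Fars2 and Lyrm4 had -0.05 and 0.00, and Rars2 and Orc3 had -0.02 and 0.05. Whether neighbours changed alike was not tested.

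Proteins that work with the synthetases were counted as a list of 11 genes: 0 passed the threshold, 8 had negative values and the median log2 fold change was -0.08. Aarsd1, which removes wrongly attached serine from alanine tRNA, averaged 13.7 ± 0.804 CPM in MNR and 15.6 ± 1.38 CPM in control litters (log2 fold change -0.19, unadjusted p 0.023, adjusted p 0.181), and was the 1 gene of the list with an unadjusted p under 0.05. Over all genes, 9.69% lay lower at such a p. The value was -0.13 for Mtfmt, which formylates the mitochondrial initiator tRNA, -0.12 for Pet112l, a subunit of the mitochondrial amidotransferase, and -0.11 for the scaffold Aimp2. The other scaffolds had -0.08 (Aimp1) and 0.02 (Eef1e1).

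Steps before and after charging were counted in the same way. Over all genes tested, 9.95% lay higher and 9.69% lower in MNR at an unadjusted p under 0.05. Of 33 genes of tRNA maturation 0 passed the threshold, 2 lay higher and 3 lower at an unadjusted p under 0.05, and the median was -0.04. The smallest p were those of Trit1, which adds an isopentenyl group beside the anticodon (13.1 ± 0.962 CPM in MNR, 10.8 ± 0.904 CPM in control litters, log2 fold change 0.28, adjusted p 0.0856), and Dtd1, which removes D-amino acids from tRNA (0.38, adjusted p 0.119). Of 9 cytosolic elongation and release factors 0 passed and 2 lay lower at an unadjusted p under 0.05, the ribosome recycling factor Abce1 (-0.21) and the release factor Etf1 (-0.13), with a median of -0.08. Of 12 mitochondrial translation factors 0 passed and 1 lay lower at such a p, Ict1 (-0.16), which rescues stalled ribosomes. The next smallest p was that of Tufm (-0.14, adjusted p 0.316), and the median of the 12 was also -0.08.

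The integrated stress response, which uncharged tRNA enters through Eif2ak4, was counted as 15 genes: the eIF2 kinases, of which the others answer to other stresses, Gcn1l1 and Impact, subunits of eIF2 and eIF2B, and the phosphatase subunits that reverse the signal. None passed the threshold, 12 had negative values, against 50.6% of all genes, and the median was -0.11. Of the 12, 5 had an unadjusted p under 0.05, where 9.69% of all genes lay lower at such a p. Eif2s2, the beta subunit of eIF2, averaged 74.1 ± 4.37 CPM in MNR and 88.3 ± 7.55 CPM in control litters (log2 fold change -0.25, adjusted p 0.0852). Eif2b2, of the exchange factor eIF2B, had -0.20 (adjusted p 0.153). Every MNR litter lay below every control litter for Eif2s2 and Eif2b5, 2 of the 15, against 2.23% of all genes. Eif2ak4, the sensor of uncharged tRNA, averaged 32 ± 4.56 CPM in MNR and 28.2 ± 1.79 CPM in control litters, a log2 fold change of 0.18 with an adjusted p of 0.318.

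ATF4, its partners and its other known target genes formed a list of 32, of which 31 were tested, and 1 passed the threshold. This was Cebpb, a C/EBP transcription factor, with 37.2 ± 3.83 CPM in MNR and 26.4 ± 2.29 CPM in control litters, higher by 0.49 on the log2 scale (SE 0.08, adjusted p 0.0286). This call ended when control litter A, C or E or MNR litter B or E was left out, since 0 genes of the series were then called. Whether the Cebpb call held without each of the other litters is not reported here. The next smallest p belonged to Cth, an enzyme of cysteine synthesis (485 ± 107 CPM in MNR, 282 ± 54.8 CPM in control litters, log2 fold change 0.78, adjusted p 0.0526), and Ddit4, an inhibitor of mTORC1 (40.4 ± 17.3 CPM in MNR, 16.1 ± 5.72 CPM in control litters, 1.33, adjusted p 0.0602). The groups did not overlap for Cth, whose MNR litters were all the higher ones, and overlapped for Ddit4. Of the 31, 17 had positive and 14 negative values, and the median was 0.01. At an unadjusted p under 0.05, 5 lay higher and 7 lower, against 9.95% and 9.69% of all genes. The 5 higher were Cebpb, Cth, Ddit4, Jdp2 and Slc3a2 (0.16). The 7 lower were Slc7a1, Slc7a5, Atf4, Mthfd2, Aldh18a1, Psph and Phgdh, with values of -0.40 to -0.27. Atf4 mRNA averaged 85.1 ± 12 CPM in MNR and 103 ± 9.1 CPM in control litters (-0.27, adjusted p 0.147). Asns, the asparagine synthetase and a target of ATF4, averaged 102 ± 8.52 CPM in MNR and 110 ± 20.1 CPM in control litters (-0.10, adjusted p 0.68).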

How the data were processed

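The authors deposited a table of raw transcript counts for each fetus. The submitters' processing notes name the build mm9 and the tools edgeR, DESeq2, Bowtie2 and FastQC. Per the labels' protocols, libraries were made with a directional kit. Which tool counted reads, and how it used strand and multiple matches, is not given in the sources used. The deposited gene table of the whole series (20 columns) was not used, because for most genes its values are not the sums of the deposited transcript counts.

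Transcript counts were summed per gene (NCBIM37, GENCODE release M1) and over littermates. Unmatched transcripts held 0.0788% to 0.154% of counts. Low genes were removed by filterByExpr (at a minimum count of 10), TMM factors were applied, and groups were compared by the two-sided quasi-likelihood test of edgeR 4.0.16 in R 4.3.3, with Benjamini-Hochberg adjustment over 17573 genes and a threshold of 0.05; this procedure was tested on simulated data. Intervals are 95%, and log2 CPM uses a prior count of 2. TPM divides each transcript's count by its own length. Fetus values use unscaled totals. Pairs of fetuses within a group all differed by more than sampling noise. No label says that the litters were handled separately after collection.

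Members and gene lists were chosen with earlier results of these data known, so lists are described by counts and medians, without a test. Every member is named. Litter values are given for members of small p or high level, and from other lists those past the threshold or the 2 of smallest p (4 for synthetase partners) are named. Aimp1, Eef1e1, Eif2ak4, Eif2b5, Atf4, Asns, Cth, Ddit4, Jdp2 and Ddit3 were added after their values were seen. So were the other genes of the ATF4 list with an unadjusted p under 0.05. Alternatives were other scalings, filters and thresholds, DESeq2 1.42.0, limma 3.58.1 (voom, litter as a random effect), fetuses as separate libraries or 1 per litter, the litter letter as a block, an erythroid covariate, protein-coding transcripts alone, and leaving out litters or fetuses with pancreas markers. Of the promoter matches, the one nearest the gene start is shown, and any other is not reported here.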

Additional observations from a re-analysis of the deposited data

Results flagged for a closer look

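Of 72 sets of 5 litters (36 genes in 2 groups), 4 held a litter far from the other 4 by Dixon's criterion (0.71 of the range), and chance gives about 1 in 20. Tars stood apart in both groups, with 80.9 CPM in MNR litter E, where the other MNR litters had 59.8 to 65.8 CPM, and with 62.5 CPM in control litter B, where the other control litters had 78.0 to 81.0 CPM. Rars had 40.7 CPM in MNR litter E, where the other MNR litters had 34.5 to 35.5 CPM. Hars had 60.6 CPM in MNR litter A, where the other MNR litters had 53.7 to 54.6 CPM. Control litter B holds the fetus with the highest sum of pancreas markers (677 CPM), and its littermate, with 29.4 CPM of these markers, had 64.8 CPM of Tars, where the other control fetuses had 69.6 to 86.5 CPM. MNR litter B holds a fetus with 278 CPM and MNR litter E one with 194 CPM of these markers. Without the fetus of highest sum the log2 fold change was -0.21 for Tars (-0.20 with all fetuses), -0.14 for Rars (-0.14 with all) and -0.13 for Hars (-0.12 with all).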

How the results depend on the processing

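Over 26 other settings, 1 of them (leaving out the 3 fetuses with more than 5 times the median of pancreas markers) chosen after seeing the data, the cytosolic median stayed between -0.18 and -0.08 with 15 to 18 of 20 values negative, and the mitochondrial median between -0.11 and -0.04 with 9 to 11 of 16 negative. Neither median changed sign. The count of cytosolic calls was 0 as reported, in a fit that called 117 of 17573 genes. It was 1 with upper quartile scaling (178 of 17573 genes called), no low-count filter (145 of 26830) and a filter of 1 CPM (145 of 14906). It was also 1 with protein-coding transcripts alone (130 of 14634), without the fetus of highest pancreas markers (296 of 17551) and without the 3 such fetuses (215 of 17565). With the litter letter as a replicate block it was also 1 cytosolic call, and 0 mitochondrial (232 of 17573). Litters of the same letter had correlations of -0.00928 to 0.184, so the letters are not taken to pair the litters. It was 3 with fetus 2 of each litter alone (499 of 16182 genes called, cytosolic median -0.17) and 0 with fetus 1 alone (0 of 16171, median -0.09). There were 4 cytosolic and 1 mitochondrial calls by DESeq2 (1163 of 17573 genes called), by limma-voom with litter as a random effect (1088 of 16136) and at a threshold of 0.1 (875 of 17573). With fetuses as separate libraries, which treats littermates as independent, there were 5 cytosolic and 2 mitochondrial calls (2301 of 16136). Leaving out 1 litter gave 0 to 3 cytosolic and 0 to 1 mitochondrial calls. There were 3 and 1 without control litter B (843 of 17748 genes called), and 1 cytosolic call without MNR litter D (512 of 17697). The cause of these changes was not tested. Upper quartile scaling moved the median of all genes to -0.03 and the calls over all genes to 68 higher and 110 lower, against 73 higher and 44 lower. Calls over all genes ran between 0 and 2301.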
